A study of Mus musculus with 12 samples.

Results

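Expression of 10 genes of the hypoxia response was followed across lung tumours and adjacent lung of mice given house dust mite (HDM) or VEH, a control treatment that the labels do not spell out. The 10 genes are Hif1a and Epas1, which encode oxygen-regulated transcription factor subunits, and 8 genes known to be induced by hypoxia: Egln3, Vegfa, Adm, P4ha1, Ndrg1, Bnip3, Car9 and Ankrd37. They were chosen by symbol from the 78298 gene rows of the count table, each symbol matched 1 row, and all 10 passed the filter on low counts, as did 22190 genes in all. The tumours are labelled LLC, were dissected under a microscope as macroscopic nodules, and are set against normal lung tissue next to them, which the design text calls matched without saying which libraries match; it calls the HDM exposure chronic. Each tissue has 3 libraries per treatment, 12 in all, so the normal groups also come from lungs that carried tumours. Strain, age, the HDM schedule and the number of animals are not given in the sources used here, and nothing says whether a library pools animals. Because nothing states that replicates came from separate animals, p-values measure the spread between these libraries.

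Cells sense oxygen through hydroxylases that mark the alpha subunits of hypoxia-inducible factor (HIF) for destruction by the von Hippel-Lindau (VHL) ubiquitin ligase. When oxygen is scarce the alpha subunits HIF1A and EPAS1 (also called HIF2A) accumulate, pair with ARNT, and switch on genes for blood vessel growth, glycolysis, matrix formation and mitochondrial turnover. Control of the alpha subunits is mostly at the level of protein, so their messenger RNA is not a measure of HIF activity. In lung, Epas1 is known for high expression in endothelium, and Vegfa for expression in the alveolar epithelium.

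Total counts per library ranged from 20608682 to 32765364. Library names carry a prefix that joins 1 normal and 1 tumour library in each of 6 cases, and for 2 prefixes the treatment labels conflict: 1 prefix is shared by replicate 2 of normal VEH and of tumour HDM, and 1 by replicate 3 of normal HDM and of tumour VEH. All 12 libraries carry the same batch label. Tissue labels have no such conflict, so which libraries count as tumour or normal does not rest on it. Treatment labels still enter that comparison, because the fit has 1 coefficient per group and takes the spread within groups. Results were also computed without these 4 libraries. Levels are given in CPM, which scales counts to the library total after adjustment by TMM normalization factors. The defining markers of normal lung were present in every normal library: 8 alveolar type 2 markers summed to between 15756 and 44663 CPM, against 74.0 to 8458 CPM in tumours. Normal VEH replicate 2 stood apart from the other normal libraries. Its sum of 7 fibroblast markers was 3137 CPM, against at most 2287 CPM in the other 5, and of that sum Col3a1 gave 1414 and Dcn 920 CPM. It held 176 CPM of 8 proliferation markers, against 32.2 to 45.6 CPM in the other 5, and 854 CPM of 7 neutrophil markers, a list that was also high in normal HDM replicate 1 (608 CPM) and between 21.0 and 92.3 CPM in the other 4, with 1 of its markers at 0 in normal VEH replicate 1.

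In tumours the hypoxia genes did not move as 1 block. Over both treatments, 7 of the 10 genes changed between tumour and normal tissue (adjusted p under 0.05, from the quasi-likelihood test of edgeR over all genes tested), against 62.9% of all genes tested. Egln3, Adm, P4ha1, Ndrg1 and Hif1a rose, Vegfa and Epas1 fell, and Car9, Bnip3 and Ankrd37 did not pass. Libraries of the tissues did not overlap for 5 of the 10 genes (Egln3, P4ha1, Hif1a, Vegfa and Epas1), against 36.3% of all genes. The median log2 change was 0.53 over the 10 genes and -0.09 over all genes. The shares called and not overlapping are close to, or little above, those of all genes, so they say nothing particular about the hypoxia genes. Without the 4 libraries of conflicting prefixes the count was again 7 of 10, beside 11538 of the 22414 genes tested in that fit. Scaling libraries by size only, without TMM factors, moved the median of all genes to 0.06, and the direction of the 7 changes held under it.

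**Figure D1:**
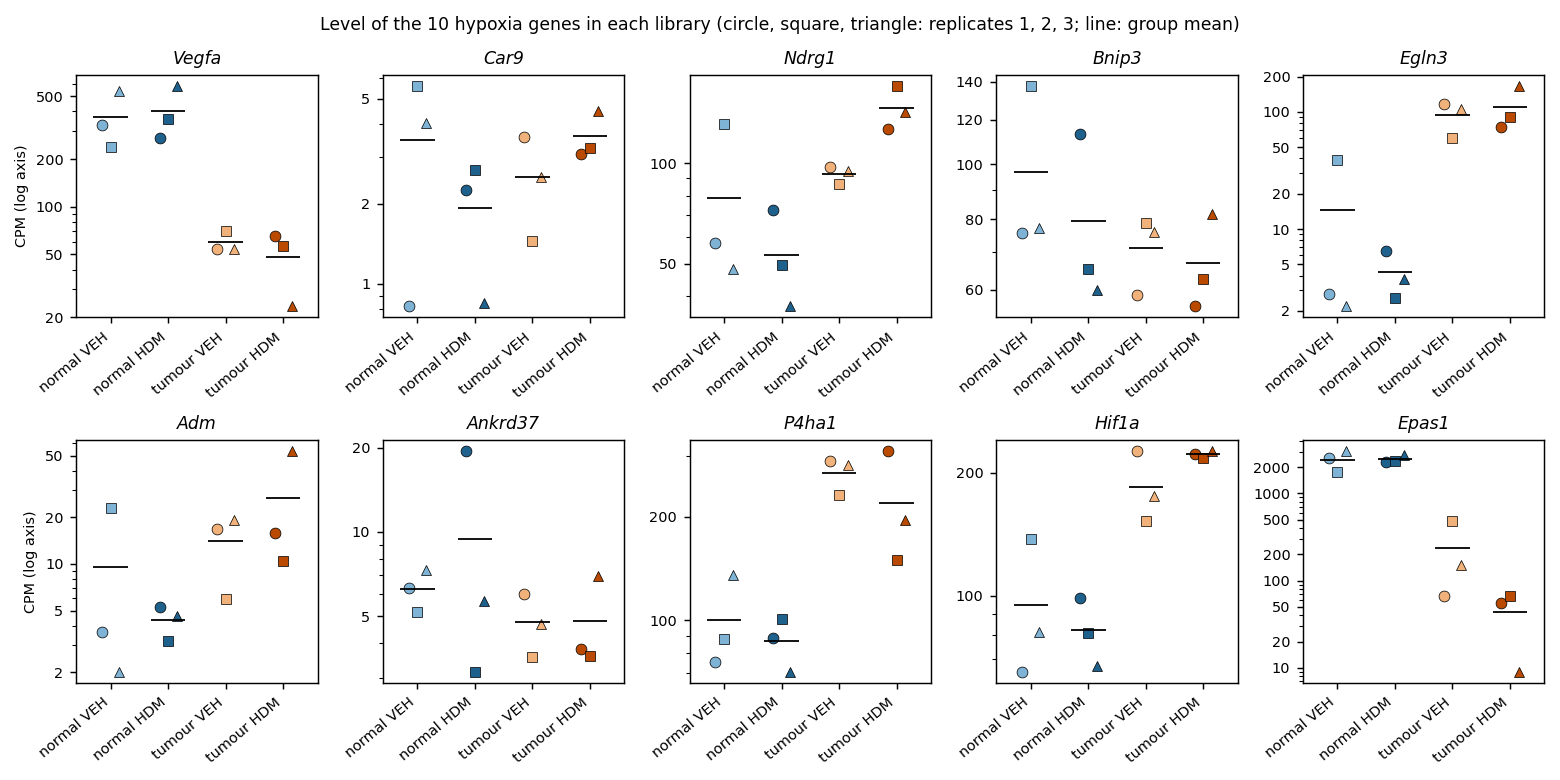
Level of each of the 10 genes in each of the 12 libraries, in CPM on a log axis, with a line at the mean of each group of 3. Vegfa and Epas1 sit lower in all 6 tumours than in all 6 normal libraries, Egln3, P4ha1 and Hif1a sit higher, and the square of normal VEH replicate 2 is the highest normal value for Egln3, Adm, Ndrg1, Bnip3, Car9 and Hif1a.

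HIF binds a short core sequence in DNA, ACGTG or GCGTG, and the start regions of the genes were searched for these letters on either strand. The search covered the 250 bases before the start of each gene's canonical transcript (GENCODE M39, GRCm39). At least 1 match was present in 8 of the 10 genes, against 41.3% of 21770 protein-coding genes, and Vegfa and Car9 had none. The base composition of the windows was not allowed for. The 4 windows printed here are those of Egln3 and P4ha1, which rose in tumours, of Vegfa, which fell, and of Bnip3, which held the most matches and did not pass the test. They are written 5′ to 3′ on the strand of the gene, with matches to either motif on either strand in capitals.
Egln3 (chr12:54250674-54250923, minus strand): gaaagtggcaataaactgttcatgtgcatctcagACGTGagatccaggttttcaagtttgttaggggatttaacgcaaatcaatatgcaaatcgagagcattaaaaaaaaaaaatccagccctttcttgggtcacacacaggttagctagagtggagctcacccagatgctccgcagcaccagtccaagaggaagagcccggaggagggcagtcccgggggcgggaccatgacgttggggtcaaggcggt
P4ha1 (chr10:59158842-59159091, plus strand): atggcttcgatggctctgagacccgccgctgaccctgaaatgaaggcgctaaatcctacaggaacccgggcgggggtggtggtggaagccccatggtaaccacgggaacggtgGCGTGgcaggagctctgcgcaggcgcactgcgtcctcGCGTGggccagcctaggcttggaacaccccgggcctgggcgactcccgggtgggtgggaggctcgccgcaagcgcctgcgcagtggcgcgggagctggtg
Vegfa (chr17:46343310-46343559, minus strand): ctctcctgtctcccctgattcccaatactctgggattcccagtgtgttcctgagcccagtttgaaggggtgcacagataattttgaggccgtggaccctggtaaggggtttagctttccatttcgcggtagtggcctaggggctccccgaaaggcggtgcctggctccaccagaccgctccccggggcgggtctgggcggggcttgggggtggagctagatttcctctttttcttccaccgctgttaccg
Bnip3 (chr7:138511254-138511503, minus strand): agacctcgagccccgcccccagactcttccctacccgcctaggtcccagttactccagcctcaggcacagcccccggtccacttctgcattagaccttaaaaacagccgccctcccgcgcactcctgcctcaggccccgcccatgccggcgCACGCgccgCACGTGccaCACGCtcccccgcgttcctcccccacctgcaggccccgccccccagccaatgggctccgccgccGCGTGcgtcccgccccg
Egln3 had 1 match, P4ha1 had 2 and Bnip3 had 5, counting both strands. In Bnip3 a pair of these share letters in a CACGTG stretch, which reads the same on both strands. A match is not evidence of binding, and absence from this window says nothing of sites farther away: the best-known hypoxia response element of the Vegfa gene lies upstream of it.

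Epas1 encodes the HIF2A subunit and lies on chromosome 17, 87061087 to 87140838 (GRCm39). Replicates 1, 2 and 3 of normal VEH, in that order here and for each gene, held 2521, 1739 and 3072 CPM, and those of normal HDM held 2314, 2351 and 2773 CPM. In tumours it was at 67.0, 483 and 153 CPM under VEH and at 55.8, 67.3 and 9.04 CPM under HDM. All 6 tumours lay below all 6 normal libraries, with tumour VEH replicate 2 the highest tumour and tumour HDM replicate 3 the lowest. Epas1 fell in tumours by 4.60 ± 0.60 on the log2 scale over both treatments (SE, n = 6 libraries per tissue, edgeR adjusted p 0.000112), the largest fall of the 10 genes. The log2 changes were -3.38 ± 0.80 under VEH (adjusted p 0.00878) and -5.82 ± 0.90 under HDM (adjusted p 0.000625), in edgeR fits of 3 libraries per group. Under VEH the call did not hold without the 4 libraries of conflicting prefixes (-3.24, adjusted p 0.0918).

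Endothelial markers moved with Epas1. All 12 markers of the endothelial list fell in tumours over both treatments, by a median of 3.24 and a range of 1.54 to 4.37 on the log2 scale. Their summed level was 1968 to 4239 CPM in normal libraries and 225 to 778 CPM in tumours, and no marker was at 0 in any library. The order at both ends was shared with Epas1: tumour VEH replicate 2 had the most endothelial signal among tumours, tumour HDM replicate 3 the least. The level of Epas1 divided by that sum was 0.634 to 0.883 in normal libraries and 0.0401 to 0.621 in tumours. On this sum each tumour lay below each normal library, tumour VEH replicate 2 (0.621) only narrowly. The sum is weighted to its most abundant markers: Eng gave 103 of the 225 CPM in tumour HDM replicate 3. The order depends on the marker taken: relative to Tek alone Epas1 overlapped between the tissues, and relative to Eng alone it did not. In bulk tissue, fewer cells of a type and less RNA per cell cannot be told apart, and the part of cell makeup in the Epas1 result was not tested.

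Hif1a encodes the HIF1A subunit (chromosome 12, 73948149 to 73996321). Normal lung held 65.0, 138 and 81.2 CPM under VEH and 98.8, 80.9 and 67.2 CPM under HDM. In tumours it was at 226, 153 and 176 CPM under VEH, and at 222, 218 and 227 CPM under HDM. Every tumour was above every normal library, and the 3 HDM tumours differed by less than any other group. Hif1a rose by 1.20 ± 0.19 on the log2 scale (edgeR adjusted p 0.000294), by 0.96 ± 0.26 under VEH (adjusted p 0.0157) and by 1.43 ± 0.27 under HDM (adjusted p 0.00148). The call under VEH did not hold in 3 of the 12 fits that each left out 1 library (without normal VEH replicate 1 or 3, or tumour VEH replicate 1), where the adjusted p reached 0.0597. A noncoding gene on the opposite strand, Gm15283, shares 695 exon bases with Hif1a and had 8119 counts in all against 46770, and whether counting used the strand is not stated.

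The balance between these alpha subunits was turned over in most tumours. On the TPM scale, which divides counts by gene length before scaling, Epas1 was 13.3 to 43.5 times the level of Hif1a in the 6 normal libraries. In tumours Hif1a was 3.07 to 23.8 times the level of Epas1 in 4 libraries (VEH replicate 1 and all 3 HDM replicates) and close to it in VEH replicate 3 (1.09 times). In tumour VEH replicate 2, Epas1 was still 3.34 times the level of Hif1a. That library also kept the most alveolar type 1, type 2 and airway marker signal among tumours (1624, 8458 and 20647 CPM, against at most 610.0, 2627 and 6323 CPM in the other 5). The part of these cell types in its Epas1 level was not tested.

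**Figure D2:**
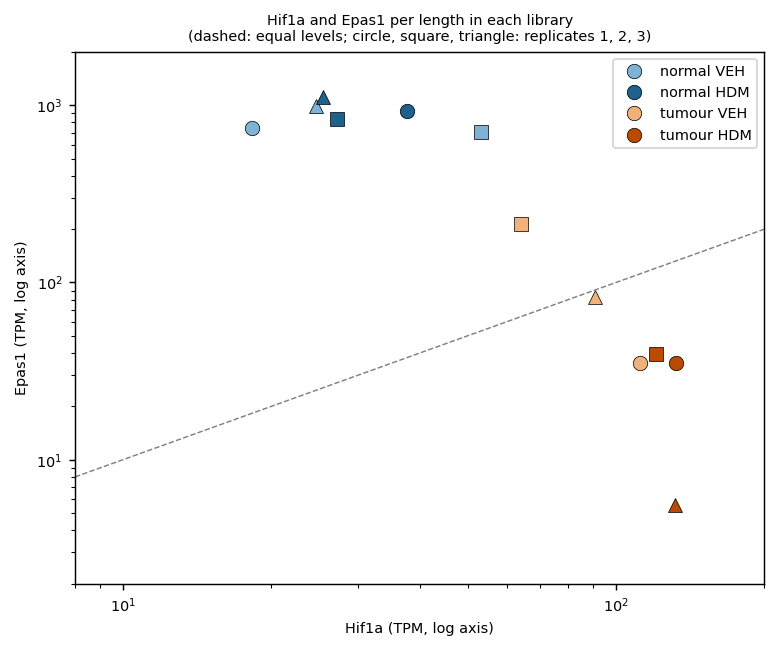
Level of Epas1 against Hif1a per length in each library (TPM, both axes log), with a dashed line where they are equal. The 6 normal libraries lie far above the line, 4 tumours lie below it, VEH replicate 3 lies near it at a ratio of 1.09, and tumour VEH replicate 2 lies above it.

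Egln3 (chromosome 12, 54225767 to 54250673) encodes PHD3, an oxygen-dependent hydroxylase that targets the HIF alpha subunits and is itself induced by HIF. Its level was 2.79, 38.9 and 2.19 CPM in normal VEH libraries and 6.47, 2.57 and 3.76 CPM in normal HDM. In tumours it was 116, 60.2 and 106 CPM under VEH, and 74.5, 90.0 and 168 CPM under HDM. All tumours were above all normal libraries, but normal VEH replicate 2 stood well above the other 5. Egln3 rose by 3.69 ± 0.71 on the log2 scale over both treatments (edgeR adjusted p 0.00118), the largest rise of the 10 genes, and by 5.03 without the 4 libraries of conflicting prefixes. Under VEH the rise was 2.68 ± 0.95 (adjusted p 0.0461) and depended on single libraries: it was 5.24 without normal VEH replicate 2, and in 10 of the 12 fits that left out 1 library the adjusted p was above the threshold, up to 0.111. Under HDM it was 4.70 ± 1.05 (adjusted p 0.00427). The other hydroxylases did not rise: Egln1, which encodes the main HIF prolyl hydroxylase, fell by 0.36 (adjusted p 0.00546), and the log2 change of Egln2 was -0.16 (adjusted p 0.427).

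Vegfa and Adm encode secreted factors that act on blood vessels, and they went opposite ways. Vegfa, the chief growth factor for endothelium (chromosome 17, 46327919 to 46343309), was at 330.4, 237 and 538 CPM in normal VEH and at 271, 356 and 583 CPM in normal HDM libraries. In tumours it was at 54.3, 70.1 and 53.9 CPM under VEH, and at 65.4, 56.2 and 23.4 CPM under HDM. All tumours lay below all normal libraries. Vegfa fell by 2.85 ± 0.31 on the log2 scale (edgeR adjusted p 3.86e-05), by 2.63 ± 0.44 under VEH (adjusted p 0.00167) and by 3.06 ± 0.45 under HDM (adjusted p 0.000459). These calls held in every alternative fit run. Alveolar markers also fell in tumours: 8 of 8 type 1 markers were lower over both treatments (median log2 change -3.51). Their sum went from between 4261 and 7887 CPM in normal libraries to between 140 and 1624 CPM in tumours, with no marker at 0. The alveolar type 2 list also fell, 8 of 8 (median -3.06). Tumour HDM replicate 3, the lowest for Vegfa, was the lowest for both lists (140 and 74.0 CPM). Among normal libraries Vegfa and the type 2 sum differed in order. That sum was highest in HDM replicate 1 (44663 CPM), where Vegfa was at 271 CPM. It was 23879 CPM in HDM replicate 3, which had the most Vegfa (583 CPM). The type 1 sum was highest in VEH replicate 3 (7887 CPM), where Vegfa was at 538 CPM, and was 5206 CPM in HDM replicate 3. The endothelial sum was lowest in VEH replicate 2 (1968 CPM), as was Vegfa (237 CPM). It was 4239 CPM in VEH replicate 3 and 4023 CPM in HDM replicate 3. The part of these cell types in the Vegfa result was not tested.

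Adm encodes adrenomedullin, a peptide that widens vessels (chromosome 7, 110226858 to 110229027). Normal lung held 3.61, 22.9 and 2.02 CPM under VEH and 5.24, 3.17 and 4.64 CPM under HDM. Tumours held 16.8, 5.95 and 19.1 CPM under VEH, and 15.8, 10.5 and 53.6 CPM under HDM. The tissues overlapped only because of normal VEH replicate 2: the other 5 normal libraries were below every tumour. Adm rose by 1.58 ± 0.63 on the log2 scale over both treatments, just inside the threshold (edgeR adjusted p 0.0488), and the call was lost in 8 of the 12 fits that left out 1 library. It was 2.46 without normal VEH replicate 2 (adjusted p 0.00217) and 1.18 without tumour HDM replicate 3 (adjusted p 0.113). Under HDM the rise was 2.61 ± 0.93 (adjusted p 0.0364) and under VEH the change was 0.55 ± 0.88 (adjusted p 0.635). The call under HDM was lost in 4 of the 12 fits that left out 1 library. It was 1.73 without tumour HDM replicate 3 (edgeR adjusted p 0.14). It was also lost without a low-count filter (2.59, edgeR adjusted p 0.106) and with the library-name prefix as a block (2.20, edgeR adjusted p 0.062). Gm72687 shares 520 exon bases with Adm on the opposite strand, with 1134 counts against 4630.

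The receptors of these ligands are mostly endothelial genes, and 7 of 8 fell in tumours over both treatments while 1 rose, where 34.8% of all genes fell and 28.1% rose. Kdr, the main signalling receptor for VEGFA, fell by 3.39 on the log2 scale (adjusted p 2.05e-05), from between 142 and 334 CPM in normal libraries to between 8.07 and 44.8 CPM in tumours. Flt1, which binds VEGFA tightly and is itself counted among hypoxia-induced genes, fell by 2.53 (adjusted p 4.11e-05). Calcrl and Ramp2, which together form an adrenomedullin receptor, fell by 3.74 and 4.12 (adjusted p 1.53e-05 and 3.38e-05). The co-receptor Nrp1 fell by 1.29 and its relative Nrp2 rose by 2.34, from 64.0 ± 13.2 to 324 ± 88.5 CPM (mean ± SD, n = 6, edgeR adjusted p 1.6e-05). The median of the 8 receptors was -2.89, beside -3.24 for the 12 endothelial markers and -0.09 for all genes.

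P4ha1 encodes the catalytic subunit of the prolyl hydroxylase that matures collagen (chromosome 10, 59159092 to 59209126). Its level in normal lung was 75.6, 88.2 and 135 CPM under VEH and 88.7, 101 and 70.7 CPM under HDM. The tumours were at 291, 231 and 283 CPM under VEH, and at 311, 150.0 and 196 CPM under HDM. No tumour fell into the normal range. P4ha1 rose by 1.38 ± 0.20 on the log2 scale (edgeR adjusted p 0.000208), by 1.43 ± 0.29 under VEH (adjusted p 0.00387) and by 1.34 ± 0.29 under HDM (adjusted p 0.00331), and the call held in every alternative fit. Its relatives split: P4ha2 fell by 0.56 (adjusted p 0.000675), while P4ha3 rose by 1.55 (adjusted p 0.00391) and the partner subunit P4hb by 0.52 (adjusted p 0.00217). The sum of 7 fibroblast markers was higher in tumours as well, 5461 to 13959 CPM against 843 to 3137 CPM in normal libraries. Most of it was Col3a1, at 2860 to 10276 CPM in tumours. By the test 4 of 7 markers were higher and 2 lower, with a median log2 change of 0.67. Col1a2 went the other way, from between 149 and 589 CPM in normal libraries to between 36.5 and 156 CPM in tumours.

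Ndrg1, a stress-responsive gene used as a marker of hypoxia, lies on chromosome 15, 66801166 to 66841835. Its level in normal lung was 57.5, 131 and 48.3 CPM under VEH and 72.5, 49.5 and 37.3 CPM under HDM. The tumours were at 97.2, 86.9 and 94.9 CPM under VEH, and at 127, 171 and 143 CPM under HDM. All HDM tumours were above all VEH tumours, and 1 normal library, VEH replicate 2, was above the 3 VEH tumours and 1 HDM tumour. Ndrg1 rose by 0.85 ± 0.25 on the log2 scale over both treatments (edgeR adjusted p 0.0117) and by 1.47 ± 0.36 under HDM (adjusted p 0.00619). Under VEH the change was 0.24 ± 0.35 (adjusted p 0.603), with a 95% interval of -0.53 to 1.01. Without normal VEH replicate 2 it was 0.82 and called (adjusted p 0.0281), and without the 4 libraries of conflicting prefixes 0.90 (adjusted p 0.0331). Opposite noncoding genes, Gm17035 and Gm2895, had 9718 and 1067 counts against 30261.

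Bnip3, Car9 and Ankrd37 did not pass over both treatments. Bnip3, which drives removal of mitochondria (chromosome 7, 138490690 to 138511253), was at 75.7, 138 and 77.0 CPM in normal VEH and 113, 65.2 and 60.0 CPM in normal HDM libraries. Tumours were at 58.6, 78.9 and 75.8 CPM under VEH and at 56.1, 62.6 and 81.6 CPM under HDM. Replicate 1 of each tumour group lay just below the lowest normal library, and the other 4 tumours lay within the normal range. The log2 change was -0.35, with a 95% interval of -0.81 to 0.11 (edgeR adjusted p 0.168), so a rise of the size seen in P4ha1 lies outside the interval. With the library-name prefix as a block it was called, at -0.30 (edgeR adjusted p 0.045). That makes 8 of 10 genes, beside 12737 of all 22190 genes in the same fit. Its related gene Bnip3l fell by 0.66 (adjusted p 0.000544). Counts of Bnip3 are less certain than most: Gm45507 overlaps 504 of its exon bases on the opposite strand with 14138 counts against 25206, and 3 pseudogenes match it at 95.2% to 98.9% identity, with 115, 18 and 7 counts.

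Car9 encodes a carbonic anhydrase at the cell surface that exports acid and is a classical HIF1 target (chromosome 4, 43506966 to 43513729). It was low everywhere. Normal libraries held 0.821, 5.60 and 4.04 CPM under VEH and 2.25, 2.68 and 0.847 CPM under HDM, and tumours held 3.57, 1.45 and 2.54 CPM under VEH and 3.08, 3.24 and 4.49 CPM under HDM. The log2 change over both treatments was 0.22 (95% interval -0.79 to 1.22, edgeR adjusted p 0.697). All 3 HDM tumours were above all 3 normal HDM libraries, which did not amount to a call (0.90 ± 0.65, adjusted p 0.262). Counts per library ran from 20 to 178, and Gm12454 on the opposite strand had 400 against 939 in all. Among other carbonic anhydrases, Car12 rose by 2.60 (adjusted p 0.00368) from 0.399 to 2.42 CPM, and Car4, a marker of lung capillaries, fell by 4.72 (adjusted p 0.000186).

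Ankrd37, a small ankyrin-repeat gene often listed among hypoxia markers (chromosome 8, 46449939 to 46458744), was at 6.28, 5.19 and 7.28 CPM in normal VEH and 19.5, 3.17 and 5.67 CPM in normal HDM libraries. Tumours held 5.99, 3.57 and 4.71 CPM under VEH and 3.82, 3.62 and 6.94 CPM under HDM. The log2 change was -0.68 (95% interval -1.57 to 0.20, edgeR adjusted p 0.160), and it depended on single libraries. It was -0.14 without normal HDM replicate 1, and -0.89 and called without normal HDM replicate 2 (adjusted p 0.0456). Ufsp2 shares 1156 exon bases with Ankrd37 on the opposite strand and had 8539 counts against 1971, so the values of Ankrd37 are uncertain.

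**Figure D3:**
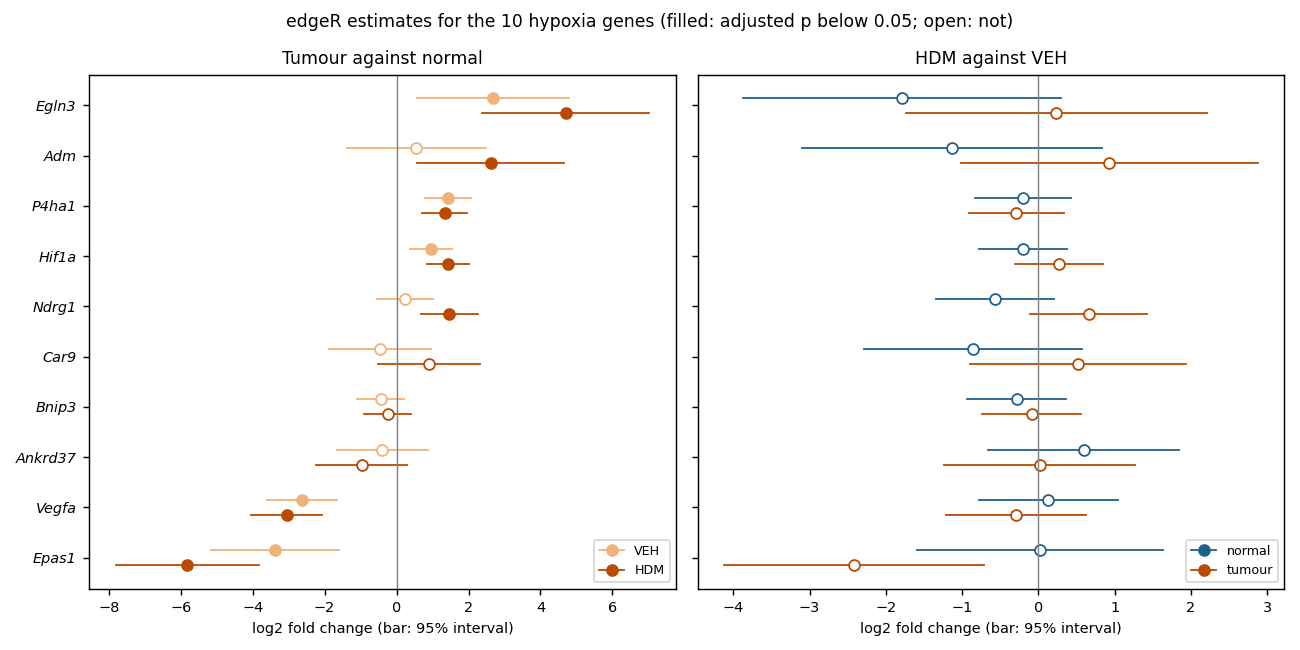
Log2 fold changes of the 10 genes with 95% intervals from edgeR, for tumour against normal tissue under each treatment (left) and for HDM against VEH in each tissue (right). Filled points passed an adjusted p of 0.05: 5 under VEH and 7 under HDM on the left, and none of 20 on the right.

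Read by treatment, 5 of the 10 genes changed between tumour and normal tissue under VEH, against 38.9% of all genes, and 7 under HDM, against 51.9%. Groups did not overlap for 5 genes under VEH (52.4% of all genes) and for 8 under HDM (63.1%). The additional genes under HDM were Ndrg1 and Adm. The interaction of tissue and treatment tests whether these differences depend on HDM. It called 0 of 10 genes by edgeR (0% of all genes). An unadjusted p under 0.05 was reached by 2 genes, against 9.39% of all genes: Ndrg1, with an interaction of 1.23 ± 0.49 (adjusted p 0.512), and Epas1, with -2.43 ± 1.05 (adjusted p 0.525). The DESeq2 Wald test also called 0 of 10, beside 222 of all 22190 genes. The larger number of calls under HDM is therefore not shown to be a difference between treatments.

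Treatment itself was compared within each tissue. In normal lung, HDM against VEH called 0 of 10 genes with edgeR, 0 at an unadjusted p below 0.05 (5.54% of all genes) and 0 with DESeq2. Of all genes, edgeR called 0% and DESeq2 called 43 of 22190. The log2 changes ran from -1.79 (Egln3, 95% interval -3.87 to 0.30) to 0.59 (Ankrd37, -0.66 to 1.84). Normal VEH replicate 2 set several of these directions: without it, Egln3 was at 0.77 and Adm went from -1.13 to 0.63. The intervals of Egln3 and Adm (-3.10 to 0.84) leave room for falls of several fold, whereas those of P4ha1 (-0.83 to 0.42) and Hif1a (-0.78 to 0.37) bound the change to less than 1 log2 unit.

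In tumours, HDM against VEH again called 0 of 10 genes with edgeR, against 0.0946% of all genes. Epas1 alone had an unadjusted p below 0.05, against 16.7% of all genes, with a log2 change of -2.41 ± 0.77 (adjusted p 0.203), from 234 ± 220.0 CPM in VEH to 44.0 ± 30.9 CPM in HDM tumours (SD, n = 3). DESeq2 called Epas1 at an adjusted p of 0.02 (-2.44), where it called 1311 of all 22190 genes. With 1 library left out the edgeR change of Epas1 ran from -2.83 to -1.32, the latter without tumour VEH replicate 2. It was -1.62 with the library-name prefix as a block (edgeR adjusted p 0.667). Without the 4 libraries of conflicting prefixes it was -3.06 (edgeR adjusted p 0.393). The groups overlapped by 1 library, VEH replicate 1 at 67.0 CPM, and the endothelial sum was 512 to 778 CPM in VEH and 225 to 459 CPM in HDM tumours. Only Ndrg1 had no overlap between the groups, against 22% of all genes: its log2 change was 0.66 ± 0.35 (adjusted p 0.369) and 0.55 without the 4 libraries of conflicting prefixes. Hif1a (0.27 ± 0.26), Egln3 (0.23 ± 0.89) and P4ha1 (-0.29 ± 0.28) had adjusted p-values of 0.639, 0.924 and 0.636.

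Single libraries held the highest or lowest value for several genes. Of the 8 targets, 5 had their highest tumour value in HDM replicate 3 (Car9, Bnip3, Egln3, Adm and Ankrd37), and 5 had their lowest in VEH replicate 2 (Car9, Ndrg1, Egln3, Adm and Ankrd37). Those libraries were also the ends of the tumour range for alveolar type 2 markers, at 74.0 and 8458 CPM. Among normal libraries, VEH replicate 2 was highest for 5 of the 8 targets (Car9, Ndrg1, Bnip3, Egln3 and Adm) and for Hif1a, and lowest for Vegfa and Epas1. Its proliferation signal of 176 CPM lay between the other normal libraries and the tumours, which ranged from 555 to 1133 CPM. The part of these marker differences in the ranking was not tested. How often all genes had their highest or lowest value in these libraries was not counted, so the ranking says nothing particular about the hypoxia genes. Other targets did not follow this order. Vegfa ran the opposite way in tumours, highest in VEH replicate 2 and lowest in HDM replicate 3. P4ha1 had its highest normal value in VEH replicate 3 and its highest tumour value in HDM replicate 1, and Ndrg1 had its highest tumour value in HDM replicate 2.

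**Figure D4:**
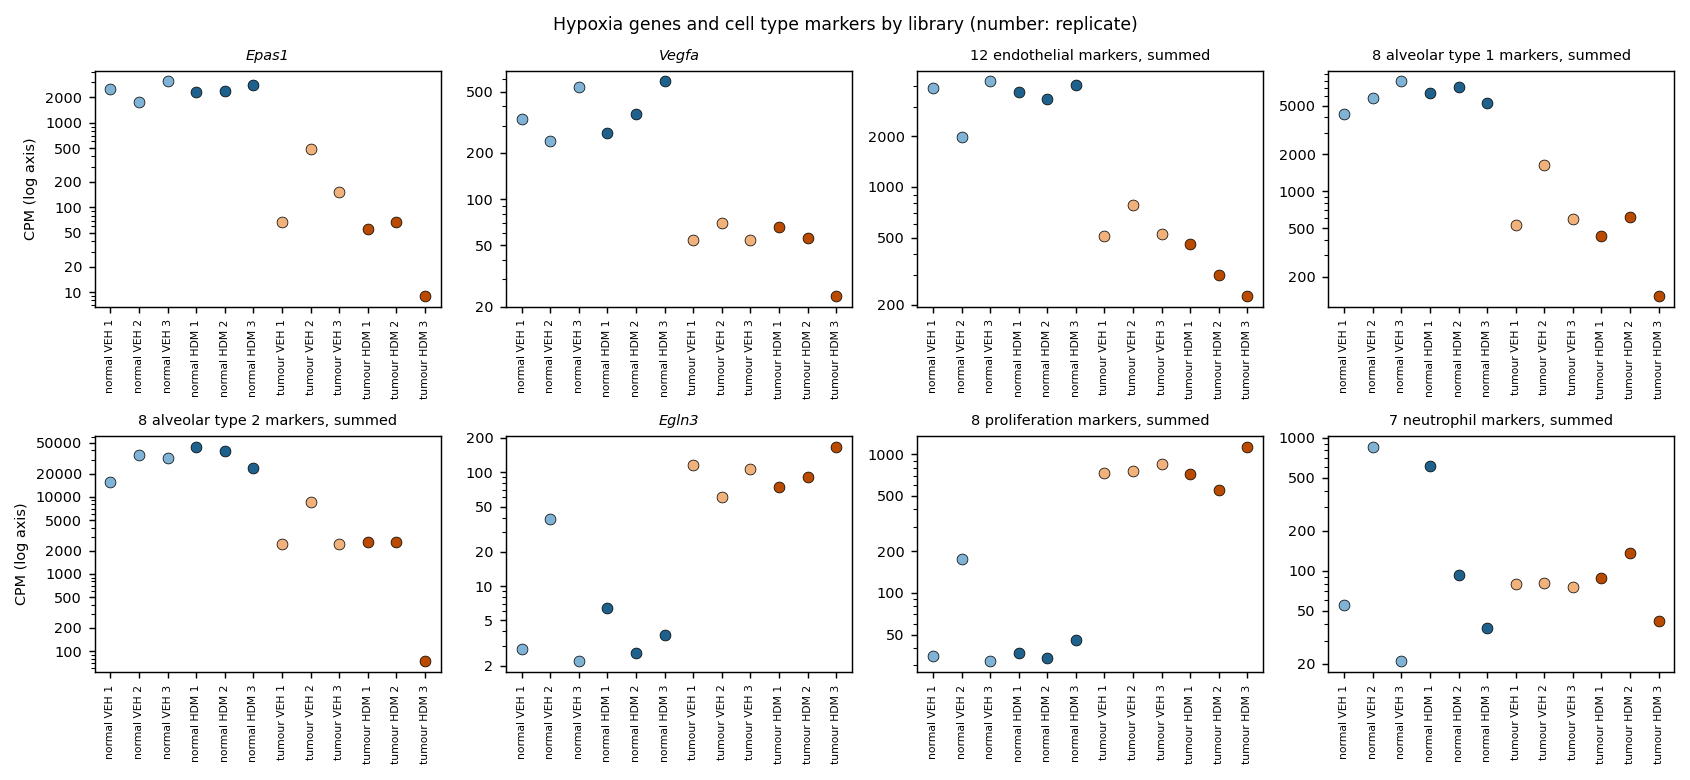
Levels of Epas1, Vegfa and Egln3 beside summed markers of endothelium, alveolar type 1 and type 2 cells, proliferation and neutrophils in each of the 12 libraries (CPM, log axes). Tumour HDM replicate 3 is lowest for Epas1, Vegfa, endothelium and both alveolar lists, and normal VEH replicate 2 is the highest normal library for Egln3, proliferation and neutrophil markers.

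Joining each tumour to the normal library of the same prefix gave the same directions. In log2(CPM + 1), Egln3, P4ha1, Ndrg1 and Hif1a were higher in the tumour in 6 of 6 pairs, and Vegfa and Epas1 in 0 of 6. Adm was higher in 5 of 6, Car9 in 4, Bnip3 in 2 and Ankrd37 in 1. The differences for Epas1 ran from -7.85 to -2.67, those for Vegfa from -3.47 to -2.06 and those for Egln3 from 1.19 to 4.95.

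Ordered per length, the genes changed places between the tissues. In normal libraries the highest was Epas1 (884 ± 152 TPM, mean ± SD, n = 6), then Vegfa (181 ± 70.1), Bnip3 (80.4 ± 35.6), P4ha1 (45.5 ± 9.87) and Hif1a (31.0 ± 12.5). In tumours the order of means was P4ha1 (184 ± 53.8), Egln3 (122 ± 52.6), Hif1a (109 ± 26.6), Bnip3 (94.1 ± 16.7) and Epas1 (68.7 ± 75.6). Vegfa had moved to the eighth place by mean (38.5 ± 11.3 TPM). The tumour means of Epas1 and Adm each included 1 high library, VEH replicate 2 (214 TPM) and HDM replicate 3 (113 TPM). By tumour median, Vegfa (39.4 TPM) lay above both Epas1 (37.2 TPM) and Adm (32.3 TPM). In normal tissue Epas1 did not overlap Vegfa, and Vegfa did not overlap the genes below it except Bnip3. Neighbours from P4ha1 to Epas1 in tumours overlapped one another. Car9 was the lowest in both tissues (2.43 ± 1.79 and 4.23 ± 1.69 TPM). TPM carries no TMM factor, so these values order genes within a tissue and do not measure change between tissues. Bnip3, for instance, had the higher mean TPM in tumours but the lower mean CPM (68.9, against 88.1 CPM in normal libraries).

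Of 15 genes for oxygen sensing, the VHL ligase and HIF cofactors, 6 rose, 2 fell and 7 did not pass in all tumours against all normal libraries. Over all genes the shares were 28.1% and 34.8%, so the share called among these genes was below that of all genes. Their median log2 change was 0.32. The ligase scaffold Cul2 rose by 0.60 and its adaptors Elob and Eloc by 0.47 and 0.39, while the log2 change of Vhl itself was -0.10 (adjusted p 0.414). Hif1an, which encodes the asparagine hydroxylase that blocks HIF coactivators, fell by 0.67 (adjusted p 0.000555). Hsp90ab1 and Rack1, whose products bind the alpha subunits, rose by 1.22 and 1.34, and Cited2, which encodes a HIF-induced inhibitor, by 0.93 (adjusted p 0.00185). Of the other subunits, the partner Arnt rose by 0.40 (adjusted p 0.0424), Hif3a fell by 3.73 from 2.47 to 0.237 CPM (adjusted p 0.0041), and Arnt2 did not pass.

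A wider list of 48 hypoxia-induced genes also held both rises and falls. Of 47 tested, 17 rose, 19 fell and 11 did not pass over both treatments, and the median log2 change was 0.06 against -0.09 for all genes. In this comparison 28.1% of all genes rose and 34.8% fell. The largest rises by the naming rule were in Stc1 (4.16, adjusted p 0.00267), which encodes a secreted glycoprotein, Ak4 (2.60, adjusted p 9.44e-05), a mitochondrial adenylate kinase, Plod2 (2.31, adjusted p 1.56e-05), a collagen lysyl hydroxylase, and Mif (2.15, adjusted p 6.27e-05), a cytokine. Stc1 varied widely between tumours, at 125 ± 143 CPM. The largest falls were in Vldlr (-3.76, adjusted p 5.31e-05), a lipoprotein receptor, Ppp1r3c (-3.59, adjusted p 0.00014), a regulator of glycogen, Edn1 (-3.55, adjusted p 4.17e-05), the vasoconstrictor endothelin, and Rora (-3.27, adjusted p 8.08e-06), a nuclear receptor. Bnip3l, P4ha2, Flt1, Car12, Cited2 and Vegfd also stand on the other lists named here. In HDM against VEH, 0 of the 47 were called by edgeR in either tissue.

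**Figure D5:**
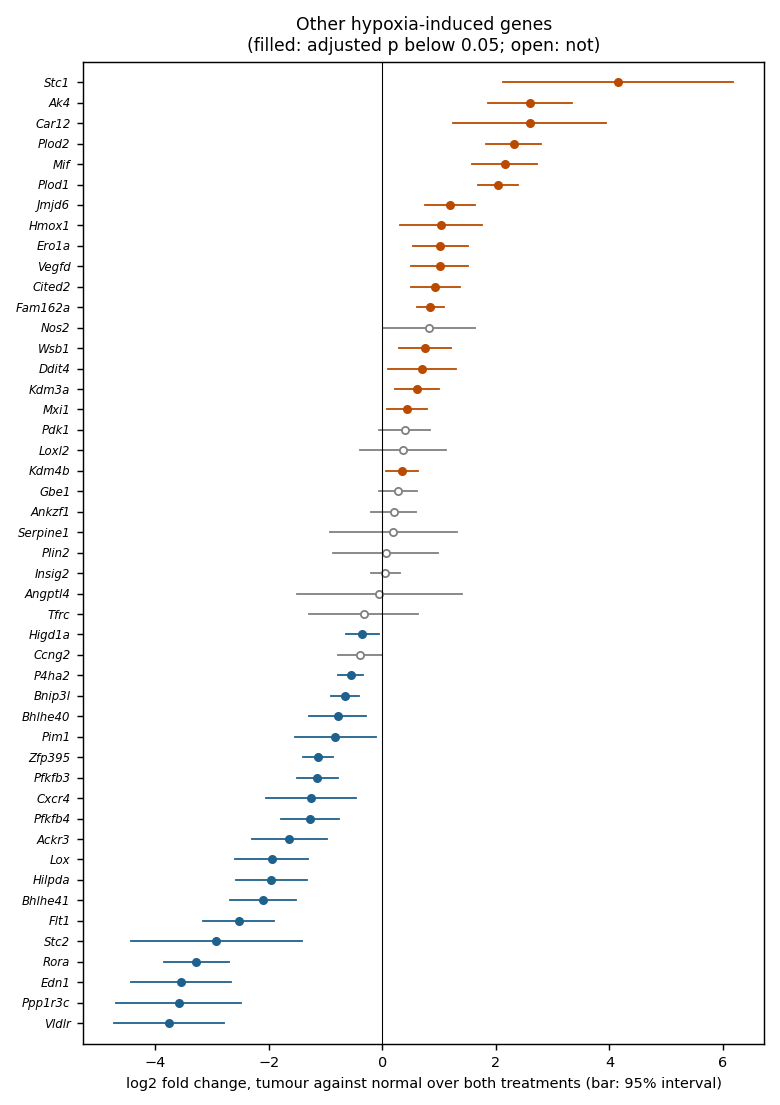
Log2 fold change of 47 other hypoxia-induced genes between tumour and normal tissue over both treatments, with 95% intervals from edgeR. Filled points passed an adjusted p of 0.05, with 17 above 0 and 19 below it, from Stc1 at 4.16 to Vldlr at -3.76.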

How the data were processed

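RNA was measured by sequencing in 12 libraries (stranded dUTP, paired ends, per the labels' protocols). The authors deposited raw counts per Ensembl gene. STAR, Trim Galore, featureCounts from Subread and the build mm39 are named in the submitters' processing notes, and versions, annotation and strand setting are not given in the sources used here. The deposited table also holds gene lengths, another column per the file headers. Symbols and coordinates came from GENCODE M39 (GRCm39), where 78168 of 78298 identifiers occur, and the others carried 0.143% of counts. GENCODE lengths of all 10 genes exceed the deposited ones, so the annotations differ.

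The counts were tested with edgeR 4.0.16 under R 4.3.3, using filterByExpr (minimum count 10), TMM, 1 coefficient per group over all 12 libraries, robust quasi-likelihood F-tests, two-sided, and p-values adjusted by Benjamini-Hochberg within each of 6 comparisons (22190 genes). Genes were called at an adjusted p below 0.05. Levels are CPM after TMM, or TPM between genes. The test was tried on simulated data. Genes named beside the 10 came from lists of HIF machinery, receptors and relatives, and, from the wider list, the 4 largest rises and falls among called genes with average log2 CPM of at least 1. The genes and lists were chosen with earlier results of these data known. DESeq2 1.42.0, other scalings and filters, blocks for replicate number or prefix, and fits without libraries were the alternatives, and those of the wider and receptor lists were added after seeing the data.
No column of per-sample values was left unused.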

Additional observations from a re-analysis of the deposited data

Results flagged for a closer look

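The 6 values below stood far from the other 5 libraries of their tissue: the gap to the nearest was larger than Dixon's 95% limit for 6 samples. Chance gives about 1 in 20 such series when values are independent and normally distributed. The 20 series examined (10 genes in 2 tissues) share the same 12 libraries and pool both treatments, so that rate is only a rough guide. Normal VEH replicate 2 was high for Egln3 (38.9 CPM) and Adm (22.9 CPM). Tumour HDM replicate 3 was high for Adm (53.6 CPM) and low for Vegfa (23.4 CPM). Normal HDM replicate 1 was high for Ankrd37 (19.5 CPM), and tumour VEH replicate 2 was high for Epas1 (483 CPM).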

How the results depend on the processing

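Over both treatments the calls of Vegfa, Epas1, Hif1a, Egln3, P4ha1 and Ndrg1 held under all 20 alternatives, and 6 to 7 genes were called when 1 library was left out (13290 to 14188 genes in all). Of 200 values per comparison, 185, 176 and 190 kept direction and side of the threshold for tumour against normal over both treatments, under VEH and under HDM, and 179, 180 and 184 for treatment in normal lung, in tumours and for the interaction. The causes of the changes were not tested. Adm over both treatments was 1.53 with DESeq2 size factors (adjusted p 0.0528) and 1.58 without a filter (0.12).

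Correlations did not settle how the libraries pair. Those of same-numbered libraries ran from -0.36 to 0.30, with 8 of 18 above 0.1. Those of shared prefixes ran from -0.22 to 0.18, with 3 of 6. Pairs that shared neither ran from -0.53 to 0.54, and values centred within groups of 3 cannot show libraries to be unpaired. With the replicate block, Adm over both treatments was 1.49 (adjusted p 0.121), Egln3 under VEH 3.06 (0.072), Adm under HDM 2.48 (0.0757) and Epas1 for treatment in normal lung -0.031, and 1 gene was called for treatment in tumours.

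Under VEH, 8624 genes were called, 5603 without the 4 libraries of conflicting prefixes and 5733 to 9070 without 1 library, with 3 to 7 of the 10. For treatment in normal lung DESeq2 called 43 genes against 0. For treatment in tumours 21 genes were called, 8 with library size only, 52 without a filter, 53 with at least 10 counts everywhere, 1311 with DESeq2 (1 of the 10), 0 with the prefix block, 0 without the 4 libraries and 0 to 24 without 1 library. DESeq2 called 222 genes for the interaction, against 0 to 6 without 1 library.

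Directions turned only for values that were not called. For treatment in tumours Ankrd37 was -0.0196 with DESeq2 size factors, -0.0187 with the strict filter, -0.0197 with DESeq2 and -0.037 without a filter. With the prefix block, Car9 under VEH was 0.26. In normal lung Ankrd37 was -0.087. In tumours Vegfa was 0.57, Car9 -1.02, Ndrg1 -0.30, Egln3 -1.98, Adm -1.12, Ankrd37 -0.16 and Hif1a -0.38, and the interactions were -0.18 for Bnip3, -0.27 for Egln3, 0.029 for P4ha1 and -0.024 for Hif1a. Without the 4 libraries Car9 under VEH was 0.15. In normal lung Vegfa was -0.47, Car9 0.026, Ndrg1 0.22, Bnip3 0.24, Egln3 0.87, Adm 0.59, Hif1a 0.31 and Epas1 -0.26. In tumours Bnip3 was 0.0012, and the interactions were 0.0032 for Vegfa, -0.24 for Bnip3, -0.42 for Egln3, 0.12 for P4ha1 and -0.057 for Hif1a.

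Leaving out 1 library gave Car9 from -0.017 to 0.48 over both treatments and from -0.94 to 0.053 under VEH, Ndrg1 from -0.017 to 0.82 under VEH, and Bnip3 from -0.37 to 0.093 and Ankrd37 from -1.39 to 0.12 under HDM. For treatment in normal lung the ranges were -0.24 to 0.51 (Vegfa), -0.86 to 0.0069 (Ndrg1), -0.63 to 0.059 (Bnip3), -2.29 to 0.77 (Egln3), -1.61 to 0.63 (Adm), -0.41 to 0.17 (Hif1a), -0.17 to 0.22 (Epas1), -0.37 to 0.083 (P4ha1) and -0.50 to 1.01 (Ankrd37). In tumours they were -0.17 to 0.44 (Egln3), -0.33 to 0.21 (Ankrd37), -0.23 to 0.012 (Bnip3), -0.57 to 0.062 (Vegfa) and -0.064 to 1.29 (Adm). For the interaction they were -0.43 to 0.14 (P4ha1), -0.15 to 0.54 (Bnip3), -0.54 to 2.53 (Egln3) and -0.995 to 0.51 (Ankrd37). The wider list had 13 to 20 genes higher and 15 to 20 lower under the alternatives, which for it were chosen after seeing the data. Scaling by library size made 51.4% of the calls over both treatments higher, against 44.7%. Depth limits Car9 most, with 20 to 178 counts per library.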
